A study of Mus musculus with 6 samples.

Results

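The nuclear hormone receptors are a family of transcription factors, many of them switched by steroids, retinoids, thyroid hormone, oxysterols or fatty acids. Their transcripts were followed in mouse germinal vesicle (GV) oocytes, the female germ cells arrested at prophase of meiosis with the nucleus still intact. The list held 46 gene symbols of the family, chosen by name, and 42 of them had a row among the 25353 genes of the deposited table. Pgr, Nr0b1, Rorb and Hnf4a had no row and were not analysed here. Mitofusins are GTPases that fuse the outer membranes of mitochondria, and the series compares oocytes in which one of them was deleted with wild-type oocytes. There were 3 libraries labelled knockout (KO) and 3 wild-type (WT) libraries, each from 5 pooled oocytes of C57BL/6J mice. The mice are stated to be 8 weeks old, while the age field of all 6 samples reads P1. The KO samples carry the genotype Mfn1-/- in their sample fields and Mfn2-/- in the design text of the series. The sources used here do not say how the deletion was made or in which cells. The protocol describes digestion of ovaries and also of secondary follicles, so the labels leave the follicle stage unclear.

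A nuclear receptor binds DNA through zinc fingers, usually at copies of a short hexamer element, and changes transcription by recruiting coactivators or corepressors. Steroid receptors act mostly as homodimers and are held by HSP90 chaperones until hormone binds. Retinoic acid, thyroid hormone, liver X and peroxisome proliferator-activated receptors pair with a retinoid X receptor (RXR). Orphan receptors have no established hormone. In the ovary, estrogen and NR5A receptors are best known for their work in granulosa and theca cells, while NR6A1 is also named germ cell nuclear factor.

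The libraries held 6450191 to 7992598 reads assigned to genes. Values are normalized counts, in which the authors scaled each library's reads by its size factor. The labels were checked on the mitofusins: Mfn2 had 5.25, 5.28 and 4.50 normalized counts in the KO libraries, against 25.5, 38.1 and 32.3 in the WT libraries, and fell by 2.44 on the log2 scale (limma adjusted p = 0.00487). Mfn1 had 398, 382 and 379 in the KO libraries, against 363, 298.5 and 360.1 in the WT libraries (limma adjusted p = 0.482). The libraries labelled KO were thus low in Mfn2 and not in Mfn1, whose KO values all lay above its WT values. All 14 oocyte markers were detected in every library. Their summed normalized counts were 125467 to 167264 in KO and 160383 to 190686 in WT, and these ranges overlapped. Of the 14, 2 were called lower in KO by limma, Zar1 and Nlrp5, and 0 higher. Among all tested genes 1.41% were called lower and 1.87% higher. The 11 granulosa markers summed to 381 to 489 in KO and 491 to 670 in WT, and the greater part was Cyp19a1, at 301 to 336 in KO and 363 to 445 in WT. Markers of theca and luteal cells stood far apart in WT replicate 1, at 1892, against 322 and 17.7 in the other WT libraries and 9.45 to 54.0 in KO. Since the labels tie no pool to its own mouse, the tests measure only how far these pools spread. In pooled samples, fewer cells of a type and less RNA per cell cannot be told apart.

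Most of the receptor RNA in these oocytes came from a few genes. Levels are compared between genes as normalized counts per kilobase of exon, with exon length taken as the union of annotated exons. The highest were Nr1d1, Esr2, Pparg, Esrrb and Nr2e1, which together held 82.1% of the receptor level in KO and 81.7% in WT, summed per kilobase. At the other end, 10 of the 42 receptors had at most 3 reads in every library. A mean of at least 20 normalized counts was reached by 22 receptors, and of at least 500 by 6. Across libraries the ranges of Nr1d1 (427 to 461) and Esr2 (356 to 391) did not overlap, while those of Pparg (224 to 328) and Esrrb (206 to 272) did, as did those of Esrrb and Nr2e1 (182 to 220). Rora came next, at 65.4 to 78.7. The order depends on the exon lengths, and the isoforms used in the oocyte were not examined. In normalized counts not divided by length, Esrrb had the highest mean over the 6 libraries (1407). By the same measure Rora (949) lay above Pparg (868) and Nr2e1 (742).

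**Figure D1:**
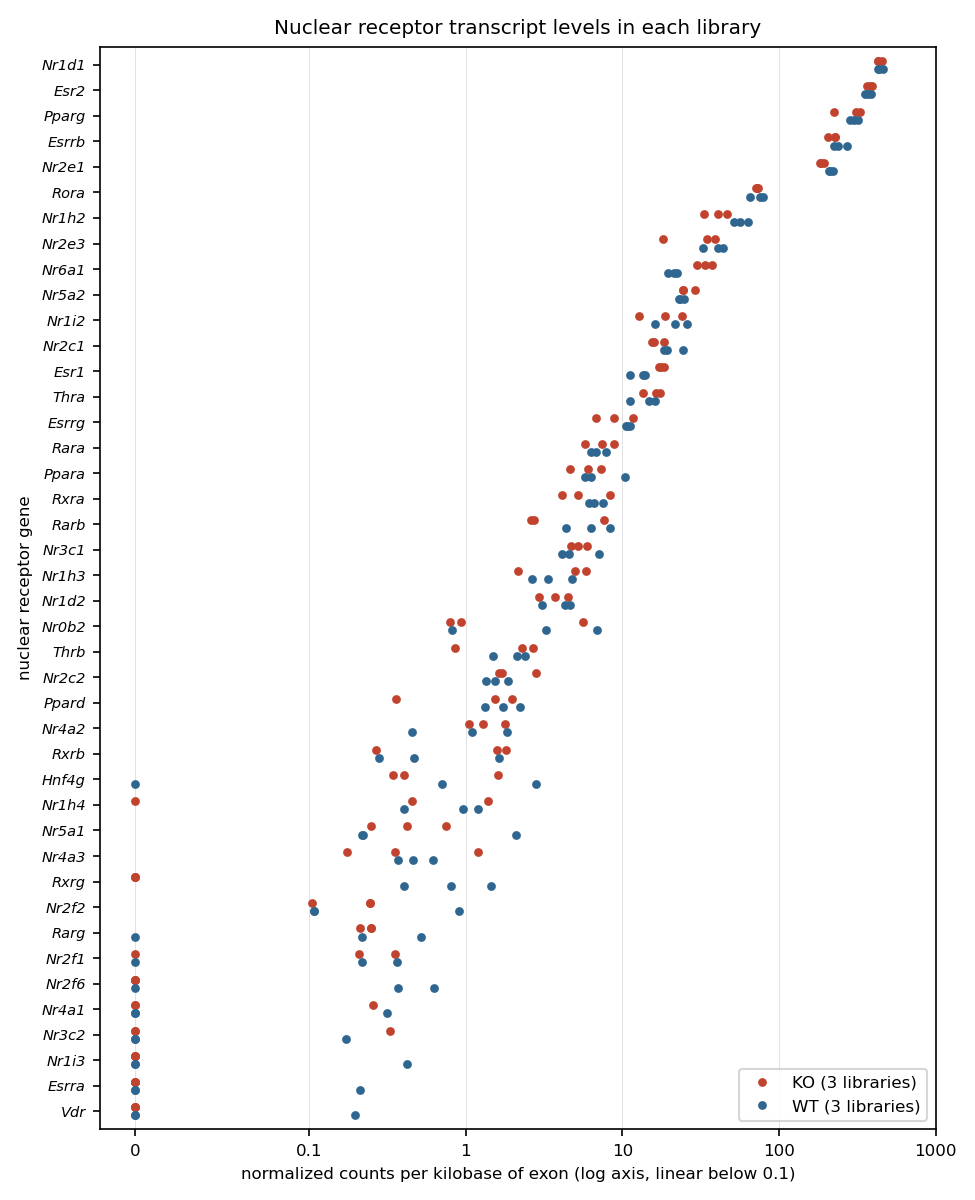
Normalized counts per kilobase of exon for the 42 nuclear receptors with a row in the table, by library (3 KO and 3 WT points per gene), on a log axis that is linear below 0.1. Nr1d1 is highest, at 427 to 461 across the 6 libraries, and the groups lie over each other for most genes.

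A single receptor passed the test. Nr6a1 was higher in KO, and none of the 35 receptors tested by limma was called lower. That is 2.86% of the receptors tested, where 3.28% of all 18762 tested genes were called, 1.87% higher and 1.41% lower. Among genes with a mean of at least 20 normalized counts, 1 of 22 receptors was called, where 5.08% of all such genes were. At an unadjusted p under 0.05 there were 3 receptors, Nr6a1, Esr1 and Nr1h2 (8.57%), against 18% of all tested genes. Only Nr1h2 of these was lower. On recovered reads, edgeR tested 25 of the receptors and DESeq2 gave an adjusted p for 21. Both called Nr6a1 alone, where they called 6.03% and 7.79% of all genes they tested. The median log2 fold change was -0.09 over the 35 receptors and -0.01 over all tested genes. A value below 0 was found in 23 of 35 receptors (65.7%) and in 51.3% of all tested genes. The remaining 7 receptors in the table did not reach a value of 1 in 3 libraries and were not tested.

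**Figure D2:**
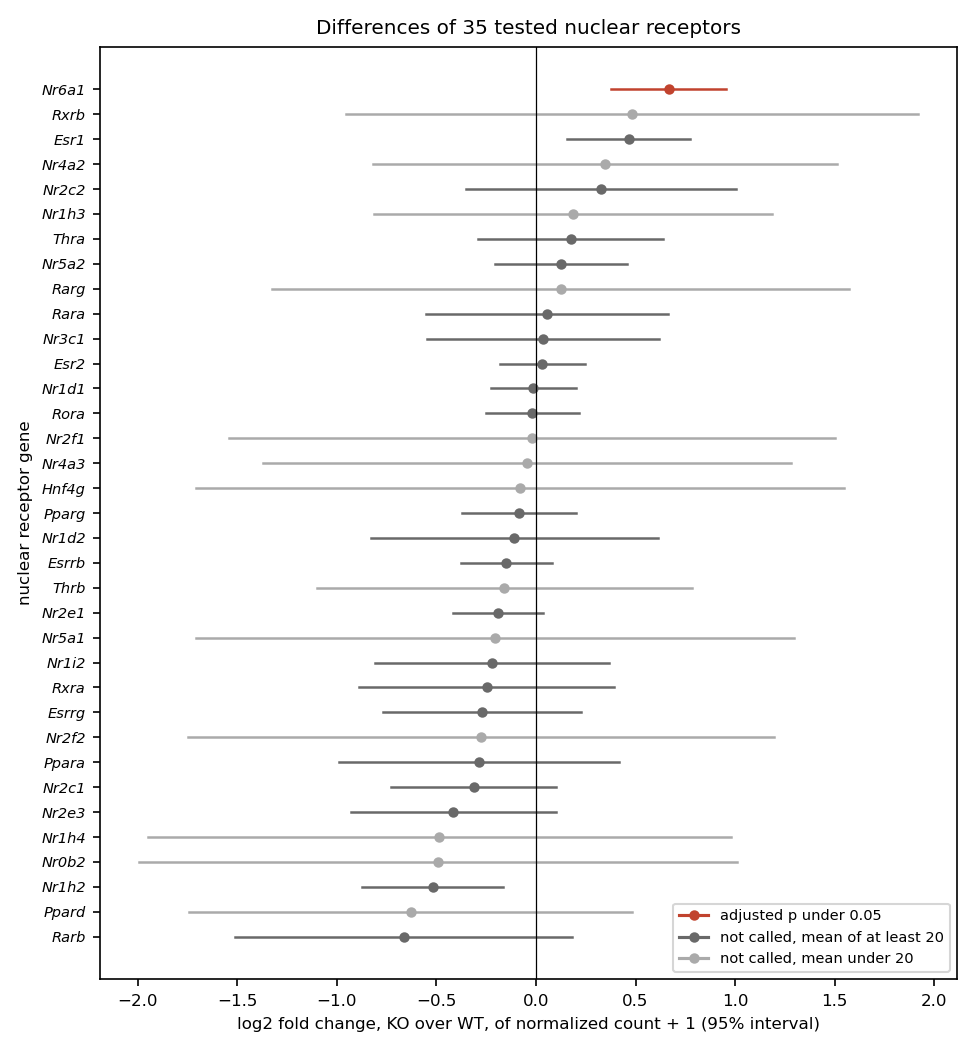
Log2 fold change of KO over WT with its 95% interval for the 35 nuclear receptors tested, on the log2(normalized count + 1) scale. Nr6a1 (0.67) is the only receptor past the adjusted threshold; the light grey intervals belong to genes with a mean under 20 normalized counts.

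Nr6a1, the germ cell nuclear factor, is an orphan receptor that represses transcription, and in mouse embryos it silences Pou5f1. Nr6a1 (ENSMUSG00000063972, chromosome 2, 38723370 to 38927688, minus strand, GRCm38) had 405, 322 and 363 normalized counts in the KO libraries, against 231, 243 and 211 in the WT libraries. All KO libraries lay above all WT libraries. Nr6a1 rose, with a log2 fold change of 0.67 (95% interval 0.38 to 0.96, SE 0.14; adjusted p = 0.0162 by limma), and averaged 364 ± 41.6 in KO and 228 ± 15.8 in WT (SD, n = 3 each). The edgeR adjusted p was 0.0148 and that of DESeq2 0.00173. Without WT replicate 1, 2 or 3 the limma adjusted p was 0.0506, 0.0504 and 0.0910 in that order, with log2 fold changes of 0.67, 0.71 and 0.61. Without a KO library the call held (adjusted p of 0.0202 to 0.0395).

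No base of the exons of Nr6a1 is shared with an exon of another annotated gene, and none of its 75-base windows matched another transcript. The uncharacterized gene 5730507A11Rik, which lies within Nr6a1 on the other strand, had 1 read in WT replicate 2 and none elsewhere. The neighbour Nr5a1, encoded beside Nr6a1 on the same strand, had 1 to 8 reads per library. RefSeq gives 2 starts for Nr6a1, and these data do not say which of them the oocyte uses. The 250 bases before each start (RefSeq, GRCm38.p6) are shown because Nr6a1 is the receptor that differed, with copies of the receptor element AGGTCA, on either strand, in capitals.
Nr6a1 upstream start, chr2:38926462-38926711, minus strand: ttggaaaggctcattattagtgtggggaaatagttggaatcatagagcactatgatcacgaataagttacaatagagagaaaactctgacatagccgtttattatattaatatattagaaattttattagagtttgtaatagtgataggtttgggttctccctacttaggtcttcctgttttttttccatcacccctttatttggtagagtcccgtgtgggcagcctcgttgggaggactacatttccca
Nr6a1 downstream start, chr2:38784516-38784765, minus strand: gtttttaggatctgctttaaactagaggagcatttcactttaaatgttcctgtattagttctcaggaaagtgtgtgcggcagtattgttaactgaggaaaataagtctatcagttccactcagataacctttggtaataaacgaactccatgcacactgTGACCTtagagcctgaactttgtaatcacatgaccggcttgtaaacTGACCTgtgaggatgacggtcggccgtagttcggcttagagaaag
The window of the downstream start held 2 such elements, the nearer one 39 bases before the start, and that of the upstream start held 0. The element was found in 14.0% of all 32851 RefSeq windows of this length, and 2 or more in 1.36%. The extended element TCAAGGTCA, which contains AGGTCA and is the form that NR6A1 and the NR5A and estrogen-related receptors favour, was in 0.387% of all windows and in none of the 63 windows of the family.

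Genes that NR6A1 is known to repress in the mouse did not pass the test. Pou5f1, a pluripotency factor kept in the oocyte, had 387, 259 and 287 normalized counts in the KO libraries, against 368, 362 and 366 in the WT libraries (log2 fold change -0.25, limma adjusted p = 0.395). Gdf9 and Bmp15 encode growth factors by which the oocyte signals to granulosa cells. Gdf9 averaged 27409 ± 4956 in KO and 25639 ± 5812 in WT (SD, n = 3 each; log2 fold change 0.11, interval -0.24 to 0.45). The log2 fold change of Bmp15 was 0.06 (interval -0.24 to 0.37). KO and WT libraries overlapped in each of the 3 genes; for Pou5f1 KO replicate 1 was the highest library and the other KO libraries were the lowest.

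Nr5a2, or LRH-1, stands close to Nr6a1 in the family tree and is a steroidogenic regulator of granulosa cells. It had 143, 145 and 171 normalized counts in the KO libraries, against 146, 137 and 136 in the WT libraries, and the groups overlapped (log2 fold change 0.13, interval -0.21 to 0.46). Per kilobase, Nr6a1 stood at 1.55, 1.21 and 1.16 times Nr5a2 in the KO libraries and at 0.859, 0.968 and 0.849 times in the WT libraries. The ratios did not overlap, and their exact two-sided permutation p of 0.1 is the smallest that 3 against 3 libraries allow (0.55 adjusted over 11 receptor pairs). Nr5a1, or SF-1, a regulator of steroid synthesis, had 3, 1 and 2 reads in KO and 8, 1 and 1 in WT. The small heterodimer partner Nr0b2, which lacks a DNA-binding domain, had 6, 1 and 1 reads in KO and 7, 1 and 4 in WT. WT replicate 1 had the most reads of Nr5a1 and the highest sum of theca and luteal markers, whose part in that value was not tested.

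Among estrogen receptors, the beta form was the abundant one. Esr2 (chromosome 12, 76120419 to 76177259, minus strand) had 1274, 1315 and 1236 normalized counts in the KO libraries, against 1242, 1199.6 and 1299 in the WT libraries. The groups overlapped, and the interval of the log2 fold change ran from -0.18 to 0.25 around 0.03. Esr1, the alpha form (chromosome 10, 4611593 to 5005614, plus strand), had 242, 235 and 251 in the KO libraries, against 152, 192 and 185 in the WT libraries. All KO values lay above all WT values. Its log2 fold change was 0.47 (SE 0.15, interval 0.16 to 0.77), and it missed the limma threshold (adjusted p = 0.0927; 0.0737 to 0.302 over the 14 alternatives).

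Esr2 stood well above Esr1 in every library. Per kilobase it was 21.4, 22.7 and 19.98 times Esr1 in the KO libraries and 33.2, 25.4 and 28.5 times in the WT libraries. These ratios did not overlap, with the smallest exact permutation p that the design allows (two-sided, 0.1; 0.55 adjusted over 11 pairs). The 250 bases before the RefSeq start of Esr2 are shown because Esr2 is the most abundant steroid receptor here, with the E-box CACGTG in capitals.
Esr2, chr12:76177260-76177509, minus strand: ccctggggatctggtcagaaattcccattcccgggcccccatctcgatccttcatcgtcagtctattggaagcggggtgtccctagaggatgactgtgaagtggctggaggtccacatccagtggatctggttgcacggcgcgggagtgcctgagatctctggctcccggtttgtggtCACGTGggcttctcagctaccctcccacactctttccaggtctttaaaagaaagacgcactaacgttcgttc
An E-box lay 66 bases before the start, and 6.02% of all windows held one, as did 5 of the 63 windows of the family. The window held no AGGTCA.

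Estrogen-related receptors are orphan receptors that bind as monomers or dimers. ESRRA drives genes of mitochondrial metabolism with PGC-1 coactivators, and ESRRB is a pluripotency factor in mouse embryonic stem cells. Esrrb (chromosome 12, 86361117 to 86521628, plus strand) had 1377, 1379.8 and 1244 normalized counts in the KO libraries, against 1444, 1643 and 1356 in the WT libraries. The groups overlapped, and the log2 fold change was -0.15 (interval -0.38 to 0.08). Esrrg averaged 56.6 ± 15.2 in KO and 66.9 ± 2.06 in WT (SD, n = 3 each; log2 fold change -0.27, interval -0.77 to 0.22). Esrra had no read in any KO library and a single read in WT replicate 2, under the limit of 3 reads that a count of 0 allows. Esrra was therefore not above the detection limit in either group.

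The glucocorticoid receptor Nr3c1 was present at a low level, with 39.9, 45.4 and 36.0 normalized counts in the KO libraries, against 54.3, 31.6 and 35.1 in the WT libraries. KO and WT lay over each other (log2 fold change 0.04, interval -0.55 to 0.62). The mineralocorticoid receptor Nr3c2 had 2 reads in KO replicate 2, 1 in WT replicate 1 and none in the other libraries.

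**Figure D3:**
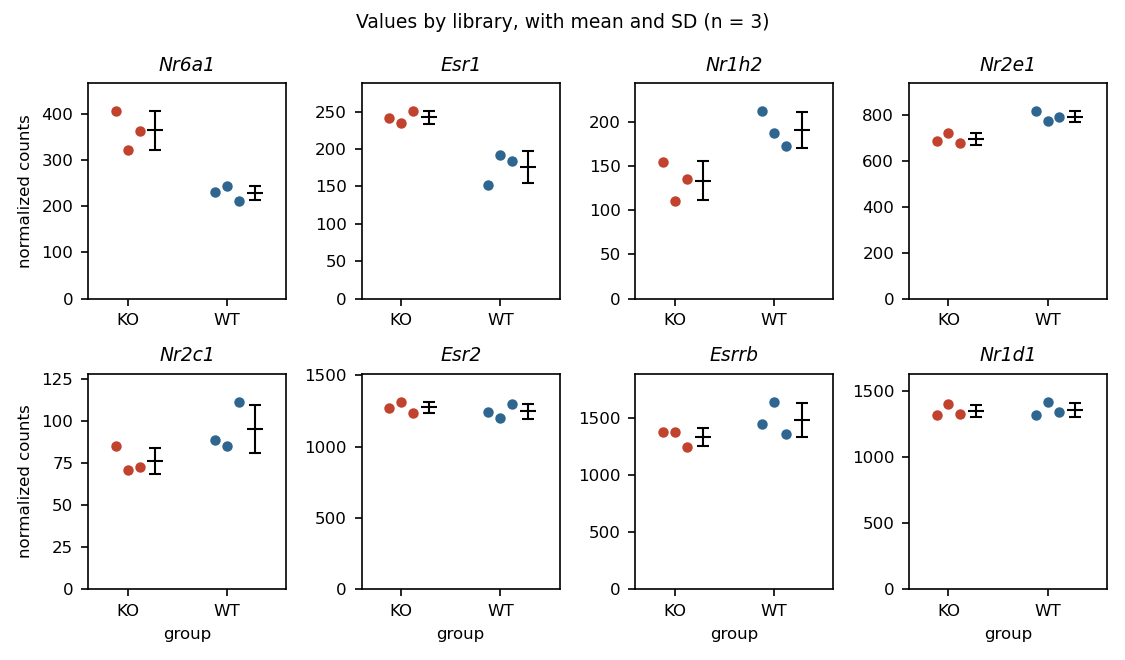
Normalized counts of 8 receptors in each library, KO left of WT, with mean and SD beside the points (n = 3 each) and axes from 0. KO and WT do not overlap in Nr6a1, Esr1, Nr1h2, Nr2e1 and Nr2c1, and overlap in Esr2, Esrrb and Nr1d1.

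Nr1d1, which encodes the heme-binding repressor REV-ERB alpha of the circadian clock, had the highest level per kilobase, above 94.1% of protein-coding genes. Nr1d1 (chromosome 11, 98767932 to 98775333, minus strand) had 1313, 1397 and 1327 normalized counts in the KO libraries, against 1319, 1417 and 1337 in the WT libraries. The groups overlapped, with a log2 fold change of -0.01 and an interval of -0.22 to 0.20. Nr1d1 and the thyroid hormone receptor gene Thra run toward each other and share 263 exon bases, 8.55% of those of Nr1d1. The libraries keep no strand, so reads in that stretch cannot be assigned. Thra averaged 72.7 ± 9.21 in KO and 64.6 ± 11.6 in WT (SD, n = 3 each). Per kilobase, Nr1d1 was 24.9 to 33.6 times Thra in KO and 26.6 to 38.8 times in WT.

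The paralogue of Nr1d1, Nr1d2 (REV-ERB beta), was far lower, at 20.03 ± 4.22 in KO and 21.7 ± 4.47 in WT (SD, n = 3 each). Rora, a receptor that activates the DNA elements REV-ERBs repress, had 958, 928 and 939.7 in the KO libraries, against 855, 1028 and 985 in the WT libraries. The WT libraries spread wider than KO and enclosed it (log2 fold change -0.02, interval -0.25 to 0.21). None of the 3 clock receptors measured passed the test, with limma adjusted p-values of 0.911 to 0.967. None had an unadjusted p under 0.05, and edgeR called 0; DESeq2 gave no adjusted p for Nr1d2 and called neither of the others.

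Per kilobase, all retinoid and thyroid receptors were below Rora. Thra was the highest of them, above 57.2% of protein-coding genes. Rara, Rarb, Rxra and Thra averaged at least 20 normalized counts, and Rarg, Rxrb, Rxrg and Thrb did not. Rxra, the RXR with the highest level here, had 28.4, 45.4 and 22.5 normalized counts in the KO libraries, against 41.0, 33.5 and 36.0 in the WT libraries. Its KO values lay on both sides of the WT values (log2 fold change -0.25, interval -0.89 to 0.39). Rarb had 13.7, 40.1 and 14.4 in KO and 33.3, 43.7 and 23.1 in WT, but 52.5% of its 75-base windows match Top2b, which overlaps it on the other strand, so its counts are uncertain. Rxrg had no read in KO and 3, 2 and 1 reads in WT, all at or under the limit of 3 reads, so no fold is given. Thrb averaged 14.4 in KO and 14.9 in WT, Rxrb had at most 8 reads in any library and Rarg at most 2. The interval for Rara ran from -0.55 to 0.66.

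The lipid and xenobiotic receptors were led by Pparg, known as the driver of fat cell formation. Pparg (chromosome 6, 115360951 to 115490399, plus strand) had 968, 912 and 661 normalized counts in the KO libraries, against 888, 937 and 838 in the WT libraries. KO replicate 3 was the lowest of the 6, and the groups overlapped (log2 fold change -0.09, interval -0.37 to 0.20). Per kilobase, Pparg was 37.1 to 63.2 times Rxra, an obligate partner, in KO and 40.04 to 51.8 times in WT. Ppara, the fatty acid oxidation receptor, averaged 23.0 ± 5.01 in KO and 28.8 ± 9.72 in WT (SD, n = 3 each), and Ppard 9.68 and 13.2.

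Nr1h2, or liver X receptor beta, senses oxysterols and raises cholesterol efflux. Nr1h2 (chromosome 7, 44549616 to 44553951, minus strand) had 155, 111 and 136 normalized counts in the KO libraries, against 213, 188 and 174 in the WT libraries. All KO values lay below all WT values, with averages of 134 ± 22.3 in KO and 191 ± 19.9 in WT (SD, n = 3 each). The log2 fold change of -0.52 (SE 0.17, interval -0.87 to -0.16) missed the limma threshold (adjusted p = 0.102; 0.0361 to 0.298 over the 14 alternatives). It passed without KO replicate 1 (-0.63, adjusted p = 0.0361), and in no other alternative. Its paralogue Nr1h3 averaged 10.9 ± 4.92 in KO and 9.01 ± 2.73 in WT (SD, n = 3 each).

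The pregnane X receptor Nr1i2, best known from liver, had 60.9, 47.5 and 32.4 in the KO libraries, against 41.0, 66.0 and 55.4 in the WT libraries, and the groups overlapped. Vdr, the vitamin D receptor, had 1 read in all 6 libraries together. Nr1i3 had 2 reads, both in WT replicate 3, and 50.4% of its windows match Tomm40l. The bile acid receptor Nr1h4 had at most 3 reads in any library.

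The NR2 orphan receptors ranged from abundant to undetectable. Nr2e1, or TLX, a repressor that maintains neural stem cells, was the fifth most abundant receptor per kilobase. Nr2e1 (chromosome 10, 42561963 to 42583632, minus strand) had 684, 722 and 674 normalized counts in the KO libraries, against 815, 770.0 and 788 in the WT libraries. The groups did not overlap, with KO below WT, but the difference was small (log2 fold change -0.19, interval -0.42 to 0.04, limma adjusted p = 0.371). Nr2e3, a photoreceptor-specific receptor in the retina, had 60.9, 131 and 117 in KO and 138, 111 and 147 in WT, and KO replicate 1 was the lowest. The model Gm15507, on the same strand, averaged 924 in KO and 988 in WT and shares 61 exon bases with Nr2e3, 1.81% of its exon bases.

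Testicular receptor 2, encoded by Nr2c1, is a repressor of the NR2C pair. It had 85.1, 70.8 and 72.8 normalized counts in the KO libraries, against 88.7, 85.6 and 112 in the WT libraries, and the gap between the groups was under 1 normalized count (log2 fold change -0.31, interval -0.73 to 0.10, limma adjusted p = 0.434). Nr2c2 averaged 30.6 ± 9.94 in KO and 23.6 ± 3.998 in WT (SD, n = 3 each), but 45.5% of its windows match other genes, mainly the overlapping Mrps25. The COUP transcription factors Nr2f1, Nr2f2 and Nr2f6, which mark mesenchyme and stroma in many organs, had at most 2, 7 and 2 reads. Nr2f6 shares 54.4% of its exon bases with Ocel1 on the other strand, and 30.2% of its windows match Ocel1, so its counts are uncertain. The 7 reads of Nr2f2 were in WT replicate 1, where the 6 measured stromal markers summed to 93.2 normalized counts, against 31.6 and 18.5 in the other WT libraries and 7.19 to 11.6 in KO. Their part in that value was not tested. Hnf4g, a liver and gut receptor, had 1 to 4 reads in the KO libraries and 0, 2 and 8 in the WT libraries.

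The NR4A receptors are immediate early genes that stimuli induce within the hour in many cells, among them granulosa cells after gonadotropin. All were near the detection limit, with at most 8 reads of Nr4a2 and Nr4a3 and at most 1 of Nr4a1 in any library.

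KO and WT values did not overlap in 5 of the 35 receptors tested, namely Nr6a1 and Esr1 above and Nr1h2, Nr2e1 and Nr2c1 below. This is 14.3% of them, where 23.2% of all tested genes did not overlap. Among genes with a mean of at least 20 normalized counts, it was 5 of 22 receptors (22.7%) and 28.9% of all such genes. Rxrg, which was not tested, had reads in WT libraries only. For 20 of these 22 receptors the 95% interval of the log2 fold change lay between -1 and 1.

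**Figure D4:**
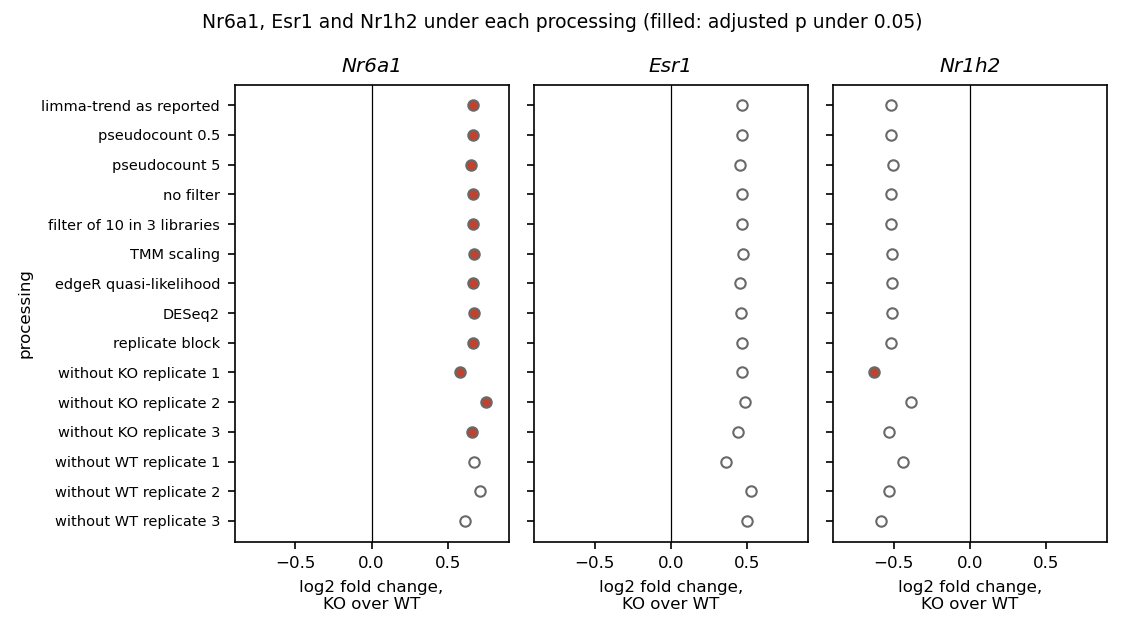
Log2 fold change of KO over WT for Nr6a1, Esr1 and Nr1h2 under each processing, filled where the adjusted p was under 0.05. The direction is the same throughout; Nr6a1 loses its call without any 1 of the WT libraries and Nr1h2 gains one without KO replicate 1.

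Genes that work with nuclear receptors were described from 7 lists. Their counts stand against 3.28% of all tested genes called by limma (1.87% higher, 1.41% lower), 6.03% by edgeR, 7.79% by DESeq2 and 18% at an unadjusted p under 0.05, with a median log2 fold change of -0.01. Of the 20 coactivators, 19 were tested and limma called none, with 4 at an unadjusted p under 0.05, where all tested genes give 18%. Of the 18 tested by edgeR 1 was called (6.03% of all genes), and of the 17 by DESeq2 also 1. Ncoa4, a coactivator that also delivers ferritin to lysosomes, had 1173, 1173 and 1302 normalized counts in the KO libraries, against 930.4, 869 and 971 in the WT libraries. The groups did not overlap (log2 fold change 0.40, SE 0.11, limma adjusted p = 0.0512, edgeR 0.0391). The p160 coactivator Ncoa2 had a log2 fold change of 0.59 (limma adjusted p = 0.0709). The list's median was 0.08.

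Of 14 corepressors tested, limma called none, with 4 at an unadjusted p under 0.05 (18% of all genes), and the median was 0.11. Of the 12 tested by edgeR 1 was called (6.03% of all genes), as was 1 of 12 by DESeq2. Nrip1, or RIP140, a ligand-dependent corepressor needed in the mouse ovary for ovulation, had 139.7, 105 and 156 in the KO libraries, against 83.2, 74.4 and 84.0 in the WT libraries. KO lay above WT throughout (log2 fold change 0.70, SE 0.19, limma adjusted p = 0.0534, edgeR 0.0386). Trim28, the scaffold of KRAB zinc finger repression, had a log2 fold change of 0.39 (limma adjusted p = 0.134).

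Of 11 receptor chaperones, 1 rose and none fell, where 1.87% of all tested genes were higher and 1.41% lower. At an unadjusted p under 0.05 there were 3 (18% of all genes), and the median was -0.23. Ptges3, the HSP90 cochaperone p23 that holds steroid receptors ready for hormone, had 753, 488 and 607 normalized counts in the KO libraries, against 253, 333 and 315 in the WT libraries. The groups did not overlap, and Ptges3 rose, with a log2 fold change of 1.02 (SE 0.16; adjusted p = 0.00443 by limma). The call held in all 14 alternatives (adjusted p of 1.03e-06 to 0.0244). Of the 11 chaperones tested, 7 had a log2 fold change below 0, as did 51.3% of all tested genes.

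In the clock list 1 of 16 genes tested rose (1.87% of all genes) and none fell, 2 had an unadjusted p under 0.05 (18% of all genes), and the median was 0.11. Per3, a period protein of the circadian clock, had 211, 144 and 175 in the KO libraries, against 108, 98.6 and 75.7 in the WT libraries. It rose by 0.90 (SE 0.19, limma adjusted p = 0.0186), with no overlap. Without WT replicate 2 or 3 its adjusted p was 0.0587 and 0.107.

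The enzymes that make or clear receptor ligands gave a single fall by limma in each of 2 lists. Both genes were highest in WT replicate 1. The sum of the theca and luteal markers was also highest there, but it is not a separate measure. Cyp11a1 and Hsd3b1 of the steroid list are among these markers and made up most of that sum. In the list of steroid, thyroid hormone and vitamin D metabolism, 1 of 15 genes tested fell by limma (1.41% of all genes), 6 had an unadjusted p under 0.05 (18% of all genes), and the median was -0.30. By edgeR 3 of the 11 tested were called (6.03% of all genes), namely Cyp11a1, Hsd3b1 and Hsd11b1. Hsd3b1, a steroid-synthesis enzyme, had 5.25, 15.8 and 49.5 normalized counts in the KO libraries, against 1269.8, 0.930 and 219 in the WT libraries. The groups overlapped, with WT replicate 1 highest and WT replicate 2 lowest of the 6 (edgeR adjusted p = 0.0371, limma 0.466). Hsd11b1, which reactivates glucocorticoids, had 14.7, 11.6 and 10.8 in the KO libraries, against 2.22, 4.65 and 2.77 in the WT libraries, with no overlap (edgeR adjusted p = 0.0483, limma 0.0620). Cyp11a1, the enzyme that starts steroid synthesis, had 3.15, 5.28 and 4.50 in the KO libraries, against 604, 13.9 and 92.3 in the WT libraries. KO lay below WT in every library, and WT replicate 1 was highest (log2 fold change -4.17, SE 0.83, limma adjusted p = 0.0135; -2.84 without WT replicate 1, -5.51 without WT replicate 2, and adjusted p = 0.0782 without WT replicate 3). Aldh1a1, which makes retinoic acid, was the fall among 8 tested genes of retinoid handling (1.41% of all genes fell). In that list 2 had an unadjusted p under 0.05 (18% of all genes), and the median was -0.09. None of the list's 5 genes tested by edgeR or 5 by DESeq2 was called, and Aldh1a1 had no adjusted p from either. A filter of 10 normalized counts in 3 libraries also left Aldh1a1 out. Aldh1a1 had 3.15, 2.11 and 2.70 in the KO libraries, against 79.8, 4.65 and 32.3 in the WT libraries (log2 fold change -2.77, SE 0.70, limma adjusted p = 0.043). Without WT replicate 1 or 3, or KO replicate 2 or 3, its adjusted p was 0.182, 0.177, 0.0960 and 0.0834 in that order. Its log2 fold change was -1.92 when WT replicate 1 was left out. The 4 theca and luteal markers in the table include Cyp11a1 and Hsd3b1 and summed to 9.45 to 54.0 in KO and 17.7 to 1892 in WT. Of the 3 tested, Lhcgr and Cyp11a1 were called lower (1.41% of all genes fell). Insl3 was under the limit of 3 reads in both groups, at 0 in every KO library and 1.11, 0 and 0.923 normalized counts in the WT libraries. The part of theca and luteal cells in these falls was not tested.

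Textbook targets of the receptors showed no call. Of 19 tested by limma, Rarb among them, none passed, nor did any of the 15 tested by edgeR or the 13 by DESeq2. By limma 3 had an unadjusted p under 0.05 (18% of all genes), and the median was -0.02. The sterol exporter Abcg1, a liver X receptor target, had 71.4, 64.4 and 64.7 in the KO libraries, against 43.2, 46.5 and 49.9 in the WT libraries. KO lay above WT in every library, but the log2 fold change of 0.51 (interval 0.05 to 0.98) did not pass the test (limma adjusted p = 0.222).

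**Figure D5:**
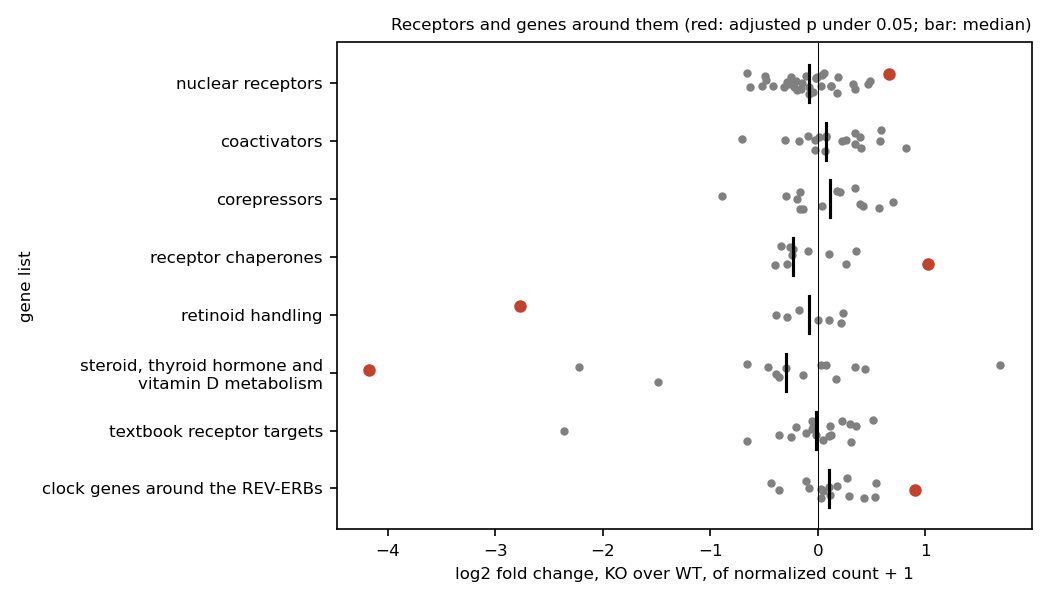
Log2 fold change of KO over WT for each tested gene of the nuclear receptors and of 7 lists around them, with the list median as a bar and genes of an adjusted p under 0.05 in red. Each list holds at most 1 red point, among them Nr6a1 (0.67), Ptges3 (1.02), Per3 (0.90), Aldh1a1 (-2.77) and Cyp11a1 (-4.17).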

How the data were processed

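The 6 libraries are RNA-seq of mouse GV oocytes. Per the labels' protocols, 5 pooled oocytes per library went through Smart-Seq2 and Nextera XT and were read as 75-base pairs; these kits keep no strand and no molecular identifiers. Per the submitters' processing notes, the builds were GRCm38 and mm10 and the tools STAR, cutadapt, FastQC, DESeq2 and DESeq, with no version or annotation named. Per the file headers the deposited signal is a DESeq2-normalized count: the authors scaled each library's reads per gene by its size factor. Whole reads were recovered for 100% of values above 0 (tolerance 0.1 reads). A count of 0 allows 3 reads, a limit that covers counting error only.

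The 18762 genes that reached 1 in 3 libraries were compared as log2(value + 1) with limma-trend (limma 3.58.1, R 4.3.3), KO against WT, with Benjamini-Hochberg adjustment and a threshold of 0.05. This scale understates changes of low genes. Alternatives were edgeR 4.0.16 and DESeq2 1.42.0 on recovered reads, other pseudocounts, filters and scaling, a replicate block, and leaving out each library. The limma and edgeR fits were tested on simulated data. Exon lengths, positions and overlaps are from GENCODE M21, where 95.6% of matched genes have the table's end after subtracting 1 base. Windows of 75 bases every 25 bases of each receptor's longest transcript were aligned with minimap2 2.31-r1302, and were called shared if another gene matched with 1 mismatch or none. Promoters are RefSeq's (GRCm38.p6), which matched 42 of 46 symbols.

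The receptors and lists were chosen with earlier results of these data known. Values in every library are given for receptors past the threshold, for those with no overlap and a mean of at least 20, and for the 12 highest per kilobase. Other lists give up to 4 called members, or the 2 of smallest p; 1 gene that this rule names is not reported here. Further receptors, Pou5f1, Gdf9, Bmp15, Hsd3b1, Hsd11b1 and the single markers mentioned were named after their values were seen.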

Additional observations from a re-analysis of the deposited data

How the results depend on the processing

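The count of 1 receptor called was the same under a pseudocount of 0.5 or 5, no filter, a filter of 10, TMM scaling, edgeR, DESeq2 and the replicate block. It ranged from 0 to 2 when a library was left out. Nr6a1 kept its direction in all 14 alternatives (log2 fold change 0.58 to 0.75) and its call in 11; without WT replicates 1, 2 and 3 the adjusted p was 0.0506, 0.0504 and 0.0910. Over all genes, 615 calls became 112 to 889 when a library was left out. The calls in the other lists numbered 4, against 7 by edgeR and 1 to 6 without a library. Replicate numbers were not treated as pairs. Same-numbered libraries correlated at -0.0766, -0.0176 and -0.0357 in their deviations from the group means, against -0.0482 to 0.0767 for differently numbered ones. Such correlations cannot show whether same-numbered pools were prepared together. With the replicate block 421 genes were called, Nr6a1 among them (limma adjusted p = 0.0285). Alternatives were recomputed for 13 receptors, those past the threshold, without overlap or among the 12 highest; of these the sign of Nr1d1, Rora, Pparg and Nr1i2 turned in 1 or 2 alternatives, none of them called. For 20 of 42 receptors the mean was under 20 normalized counts, where few reads limit the precision. The causes of these differences between alternatives were not tested.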
